A study of Mus musculus with 12 samples.

Results

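A set of 39 genes for enzymes that break down amino acids was examined in liver RNA of mice with severe acute pancreatitis (SAP) and of control mice. The members were chosen by symbol: 38 of the 39 listed symbols stand in the deposited table as listed, and methylmalonyl-CoA mutase, listed as Mut, stands there as Mmut, a synonym in RefSeq. The whole table holds 55487 rows, and 11335 genes passed the filter on low values, which asked for 1 TPM or more in 6 or more of the 12 libraries. All 39 members passed it, and the lowest value of any member in any library was 11.5 TPM. The values were read as TPM, a transcript abundance corrected for gene length and for library total, although no header or label names the unit. Levels are set side by side between genes on that reading.

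The SAP group was 6 Balb/c liver samples, SAP 10 to SAP 15, from mice given caerulein, a peptide that drives the pancreas to excessive secretion and so inflames it. The control group was 6 Balb/c liver samples, control 3 to control 8. All 12 came from wild-type mice aged 6 weeks. The labels give no dose, route or time of caerulein and no sex, and do not state whether each number is its own mouse. The p-values below therefore rest on spread among samples that may be technical. The series' design text speaks of more than 1 mouse model, and the labels name only caerulein.

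Liver is the main site where dietary and body amino acids are degraded. Aminotransferases or lyases remove the amino group, which goes on to glutamate and urea, and the carbon skeletons pass through dedicated pathways into pyruvate, acetyl-CoA or intermediates of the citric acid cycle. Most of the branched-chain, glycine and lysine steps lie in mitochondria, while the tyrosine and histidine steps are cytosolic.

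The transcripts of nearly the whole set were lower in SAP livers. Of the 39 members, 38 were lower, 1 was higher and 0 failed to pass the threshold (limma on log2(TPM + 1), Benjamini-Hochberg adjusted p under 0.05 over all genes tested). Over all 11335 genes tested, 25.0% were lower and 19.5% higher at that threshold. The median log2 change, SAP minus control, was -1.05 over the members and -0.028 over all genes tested. A log2 change of -1 or below was reached by 21 of 39 members, against 5.43% of all genes tested. After rescaling outside the acute-phase genes it was reached by 13 members, against 3.09% of all genes tested. Under quantile normalization it was reached by 14 members, against 4.48%. Both scalings are described below. In 37 members the 6 SAP values all lay below the 6 control values, against 15.1% of genes tested that were lower with no overlap. The exceptions were Glud1, whose groups overlapped, and Sdsl, whose SAP values all lay above the control values, as for 10.5% of genes tested.

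**Figure D1:**
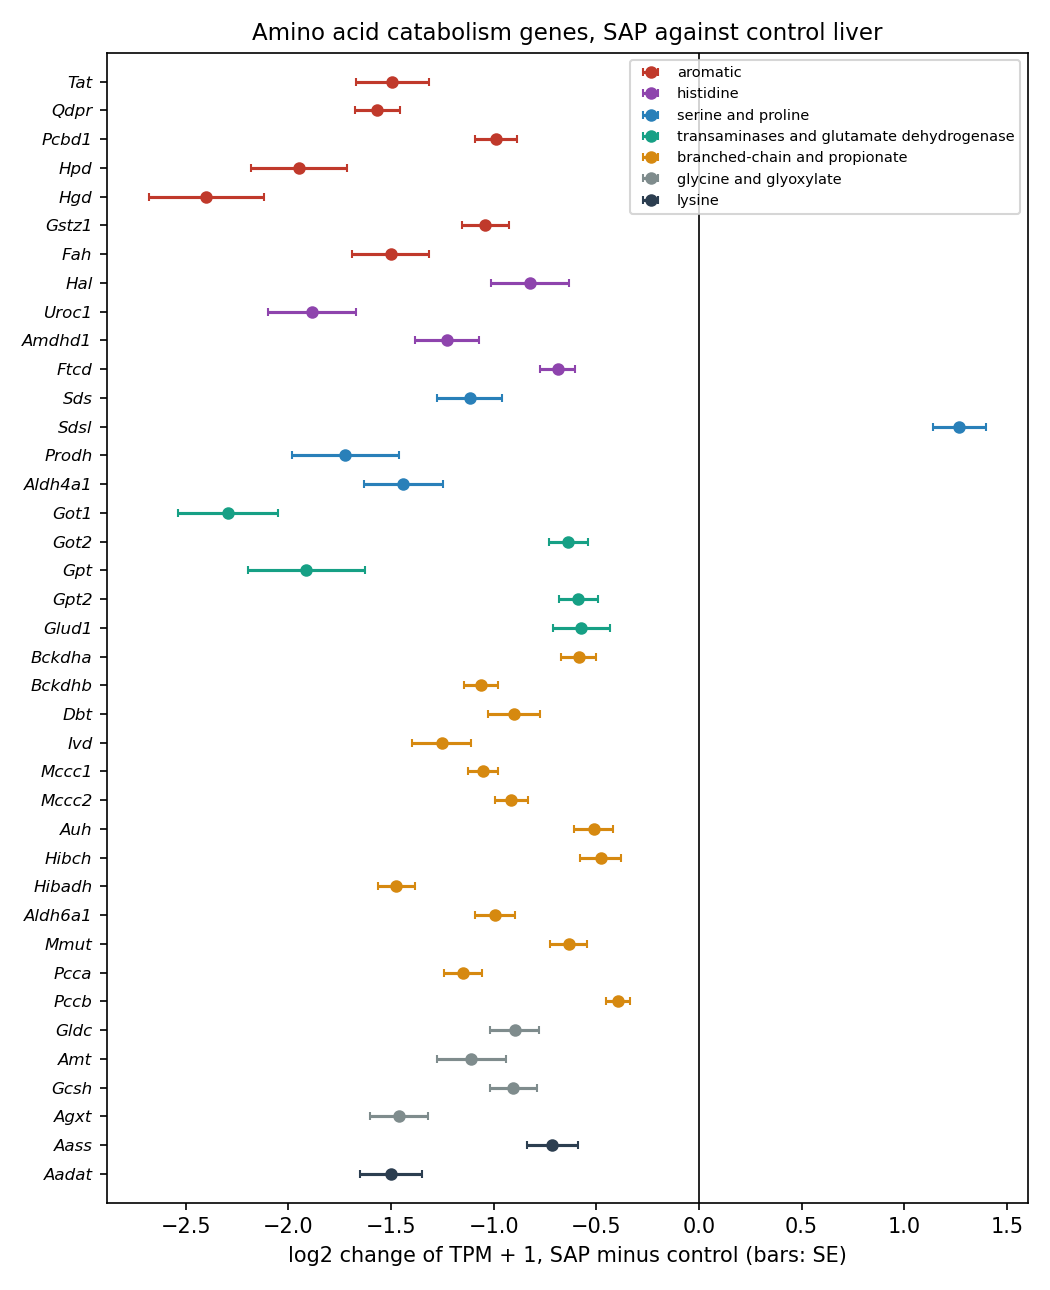
Log2 change of TPM + 1, SAP minus control, for each of the 39 members (point) with its standard error (bar), coloured by the amino acid handled; 6 SAP and 6 control libraries. All points lie left of 0 except Sdsl at 1.27, and Hgd lies farthest left at -2.40.

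Summed over the 39 members, the level was 3605 TPM in the lowest SAP library, 5647 TPM in the median and 6449 TPM in the highest, against 12061, 13633 and 15152 TPM in control libraries. The highest SAP sum was thus below the lowest control sum. The aromatic genes, of tyrosine breakdown or of the recycling of a pterin cofactor, made up most of the sum in both groups. They had 1808 to 3514 TPM in SAP and 7268 to 9608 TPM in control libraries. SAP 14 had the lowest sum, and it held the lowest SAP value in 33 of the 39 members. Among controls, control 5 held the lowest value in 17 members and control 6 the highest in 19.

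**Figure D2:**
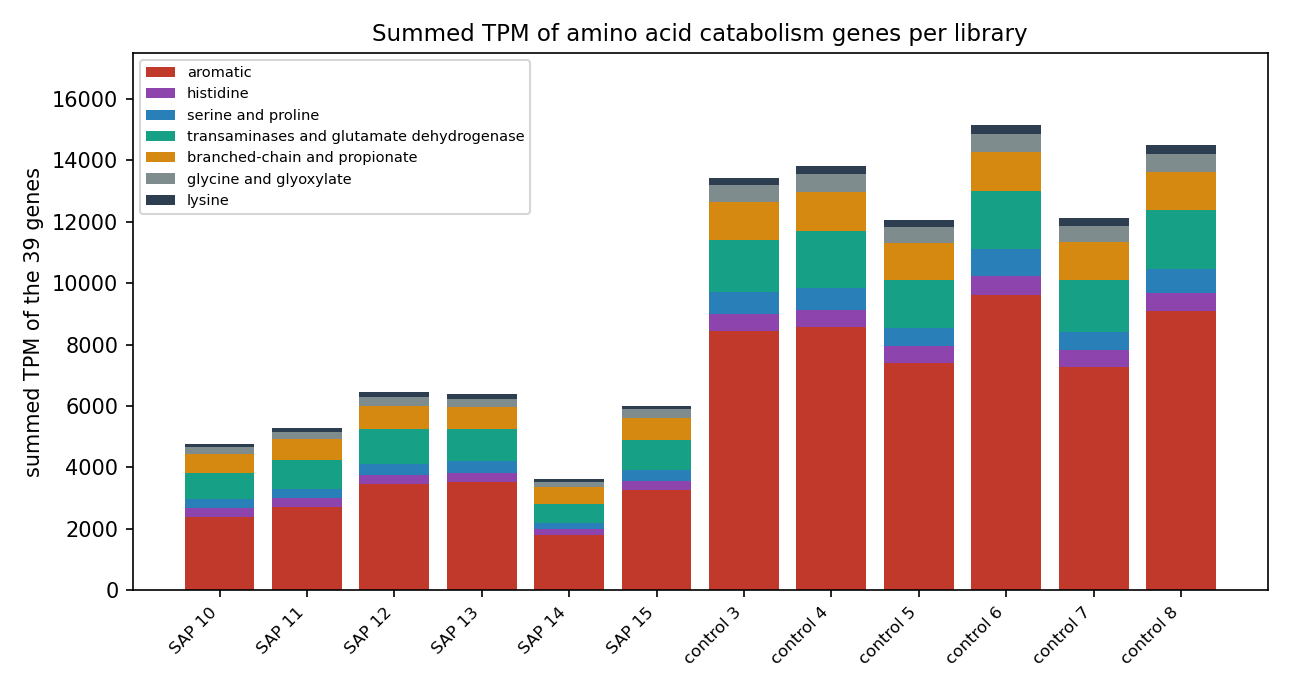
Summed TPM of the 39 members in each library, stacked by the amino acid handled, with the 6 SAP libraries left of the 6 control libraries. Every SAP bar is shorter than every control bar, and SAP 14 is the shortest at 3605 TPM.

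Several features of the libraries moved with the groups or cut across them. The hepatocyte markers (7 of 8 listed genes in the table) summed to 53313 to 60924 TPM in SAP and 82285 to 93592 TPM in control libraries, with 4 of the 7 lower and 2 higher. Alb, albumin, had 21995 to 32403 TPM in SAP and 57713 to 69833 TPM in control libraries. The other 6 markers, which include the acute-phase gene Fgb, summed to 27792 to 31318 TPM in SAP and 23256 to 26471 TPM in control libraries. Without Fgb the sum of the other 5 was lower, at 15179 to 18843.5 TPM in SAP and 21475 to 23913 TPM in control libraries. Of these 5, Ttr, Serpina1a and Asgr1 were lower and Apoa1 was higher (log2 change 0.24, limma adjusted p = 0.0221). Apob did not pass the threshold (0.14, limma adjusted p = 0.477). Neutrophil markers summed to 36.1 to 110 TPM in SAP and 3.84 to 16.6 TPM in control libraries, with 3 of 4 tested higher and none of the 6 at 0 in every library. Monocyte markers summed to 58.1 to 81.6 TPM in SAP and 41.3 to 61.2 TPM in control libraries, with 2 of 3 tested higher and Lyz2 lower. Kupffer cell markers summed to 103 to 243 TPM in SAP and 154 to 242 TPM in control libraries, with 3 of 6 lower, stellate cell markers to 110 to 143 TPM in SAP and 107 to 132 TPM in control libraries, with 4 of 6 higher and 1 lower, and sinusoidal endothelial markers to 91.3 to 129 TPM in SAP and 84.95 to 123 TPM in control libraries, with 2 of 6 higher. Red blood cell markers summed to 341 to 716 TPM in SAP and 607 to 5292 TPM in control libraries, with all 5 of the red blood cell genes lower. Pancreatic acinar markers summed to 0.36 to 1.04 TPM in SAP and 0.26 to 9.53 TPM in control libraries. Their part in the results was not tested, and in bulk liver fewer cells of a type and less RNA per cell cannot be told apart. The nuclear RNA Malat1 was at 2.76 to 8.19 TPM in 5 libraries (SAP 11, SAP 13, SAP 14, SAP 15 and control 5) and at 26.2 to 40.1 TPM in the other 7. Within those 7 libraries, 2 SAP and 5 control, 38 members were lower and 1 higher, against 16.1% and 18.0% of genes tested. All 39 members had the same direction within the low Malat1 libraries, where control 5 is the only control. Without SAP 14 and control 5 the counts were again 38 lower and 1 higher, against 22.8% and 20.2% of genes tested.

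Acute-phase transcripts took up much of the SAP libraries, and the TPM values of a library share a fixed total. A list of 30 acute-phase genes held 22.8 to 37.1% of TPM in SAP and 3.64 to 4.26% in control libraries. With TPM rescaled to the genes outside that list, the median change of all genes tested became 0.33, and 33 members were lower, 1 higher and 5 not past the threshold, against 10.5% of genes tested lower and 56.0% higher. The members' median under that scaling was -0.65, which is 0.98 below the median of all genes. It was 1.03 below that median with TPM as deposited, 1.02 below with TMM-like scaling and 0.82 below with quantile normalization. The 5 members that lost their call after rescaling were Gpt2 (-0.17, limma adjusted p = 0.115), Glud1 (-0.15, 0.228), Auh (-0.11, 0.194), Hibch (-0.072, 0.413) and Pccb (0.023, 0.735). Of these, Pccb changed sign.

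**Figure D3:**
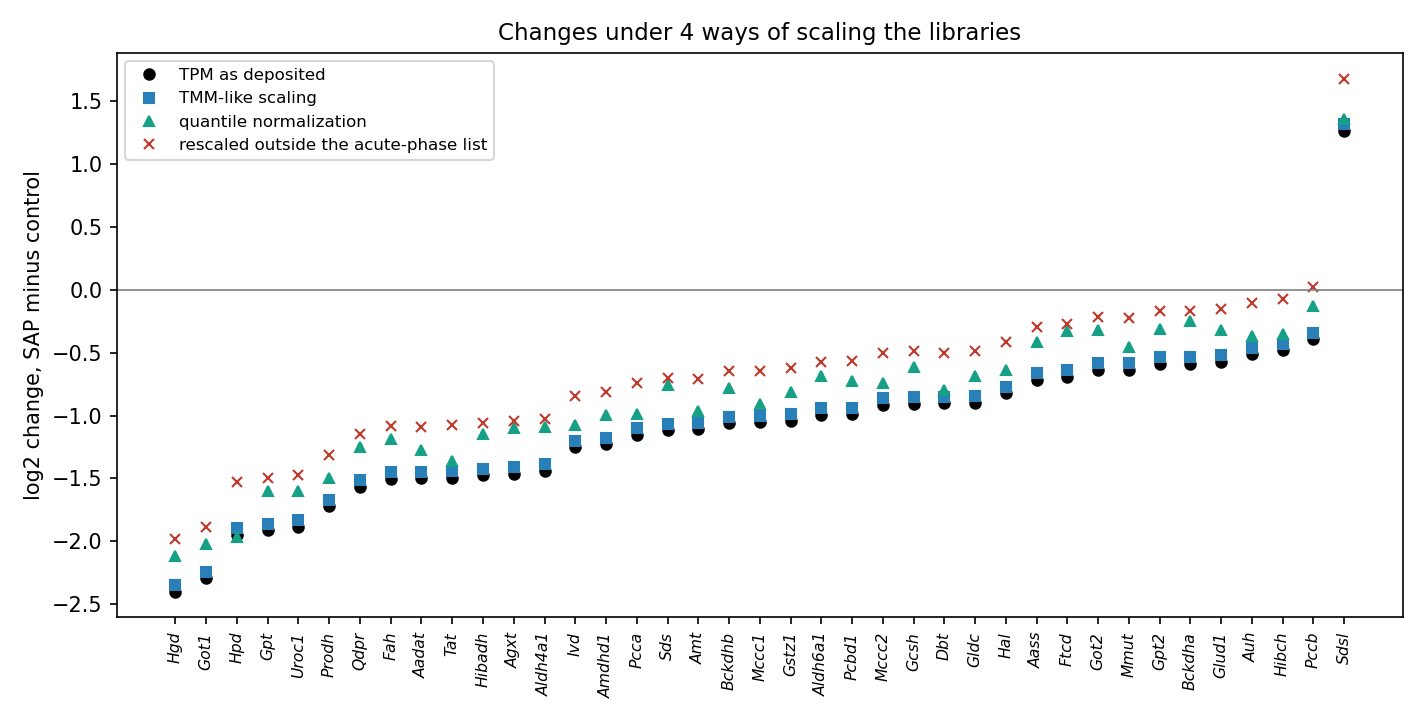
Log2 change, SAP minus control, of the 39 members under 4 ways of scaling the libraries, ordered by the change with TPM as deposited (black circles). Rescaling outside the acute-phase list (red crosses) moves the members up by about the same amount, and Pccb ends at 0.023.

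All 7 aromatic genes, of tyrosine breakdown or of the recycling of a pterin cofactor, were lower in SAP. Their median log2 change was -1.50 (-1.08 after rescaling outside the acute-phase list). Tat, tyrosine aminotransferase, takes the amino group off tyrosine and opens the pathway. It was at 522 TPM in the lowest SAP library, 597 in the median and 886 in the highest, against 1097, 1927 and 2428 TPM in controls. The groups did not overlap, although control 7 at 1097 TPM stood well below the other controls. The log2 change was -1.49 ± 0.18 (SE; limma adjusted p = 2.04e-05). Hpd, 4-hydroxyphenylpyruvate dioxygenase, makes homogentisate and was the most abundant member in controls. It had 395, 804 and 1283 TPM (lowest, median and highest) in SAP livers, against 2414, 3247 and 3632 TPM in control livers, a change of -1.95 ± 0.23 (limma adjusted p = 2.08e-05).

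Hgd, homogentisate dioxygenase, which opens the aromatic ring, had the lowest log2 change of all members. Its values were 47.4, 147 and 219 TPM in SAP livers (lowest, median, highest) and 538, 679 and 768 TPM in control livers. The SAP mean was 20.7% of the control mean, and the log2 change was -2.40 ± 0.28 (SE; limma adjusted p = 1.54e-05). The next enzymes are Gstz1, maleylacetoacetate isomerase, and Fah, fumarylacetoacetate hydrolase, which ends the pathway. Gstz1 averaged 499.9 ± 94.1 TPM in SAP and 1013 ± 28.3 TPM in control livers (SD, n = 6 each). Fah averaged 189 ± 55.1 TPM in SAP and 514 ± 34.8 TPM in control livers (SD, n = 6 each), a log2 change of -1.50 against -1.04 for Gstz1. SAP 14 had the lowest value of Hpd, Hgd, Gstz1 and Fah.

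Qdpr and Pcbd1 regenerate tetrahydrobiopterin, the cofactor of the aromatic amino acid hydroxylases. Qdpr, dihydropteridine reductase, had 139, 184 and 211 TPM in SAP livers, against 458, 543 and 593 TPM in control livers (lowest, median and highest). Its change of -1.57 ± 0.11 (SE) had a limma adjusted p of 2.13e-07. Pcbd1, which dehydrates the oxidised cofactor, averaged 318 ± 54.7 TPM in SAP and 625 ± 26.1 TPM in control livers (SD, n = 6 each), a change of -0.99. Among genes of cofactor synthesis, which are not members, Gch1, which starts it, changed by -1.20, and Gchfr, the feedback regulator of that enzyme, by -1.36. Pts and Spr, which complete the synthesis, changed by -0.36 and -0.25 (limma adjusted p = 0.00641 and 0.00588) with TPM as deposited. After rescaling outside the acute-phase list Pts was at 0.047 and not past the threshold (limma adjusted p = 0.600). Spr was then higher, at 0.17 (0.00263).

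The 4 histidine genes encode successive steps, and all were lower in SAP, with a median log2 change of -1.03 (-0.61 after rescaling). Hal, histidine ammonia-lyase, removes the amino group as ammonia and forms urocanate. It had 18.5, 40.5 and 49.7 TPM in SAP livers (lowest, median and highest) and 59.0, 63.9 and 73.2 TPM in control livers, with SAP 14 lowest (log2 change -0.82 ± 0.19 SE; limma adjusted p = 0.00315). Uroc1, urocanate hydratase, had 21.5, 52.5 and 67.0 TPM in SAP livers and 156, 173 and 207 TPM in control livers. Its change of -1.88 ± 0.21 (SE) was the lowest of the 4 (limma adjusted p = 1.20e-05). Amdhd1, imidazolonepropionase, averaged 42.5 ± 10.1 TPM in SAP and 98.2 ± 9.08 TPM in control livers (SD, n = 6 each), a change of -1.23. Ftcd, which passes the formimino group to folate, averaged 141 ± 17.6 TPM in SAP and 227 ± 13.9 TPM in control livers (SD, n = 6 each), a change of -0.69. In GENCODE M21 on GRCm38, protein-coding Hal (93488768 to 93519304, plus strand) and Amdhd1 (93523338 to 93540033, minus strand) are neighbours on chromosome 10, with 4033 bases between them.

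Among the general aminotransferases the cytosolic gene of each pair was lowered more than the mitochondrial gene. Got1, cytosolic aspartate aminotransferase, had 29.4, 42.5 and 90.2 TPM in SAP livers (lowest, median and highest) and 179, 230 and 319 TPM in control livers. Its log2 change was -2.29 ± 0.24 (SE; limma adjusted p = 7.04e-06). Got2, the mitochondrial enzyme of the malate-aspartate shuttle, had 218, 307 and 346 TPM in SAP livers and 433, 458 and 465 TPM in control livers, a change of -0.64 ± 0.09 (limma adjusted p = 1.09e-04). The ratio of Got1 to Got2 (TPM + 1) was 0.0985 to 0.297 in SAP and 0.393 to 0.699 in control libraries. On the log2 scale it differed by -1.66 between the groups, with all 6 SAP ratios below all 6 control ratios (exact two-sided permutation test, p = 0.00216, which is the minimum for 6 against 6; adjusted p = 0.00340 over the 11 pairs compared).

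Gpt, cytosolic alanine aminotransferase, had 33.6, 127 and 132 TPM in SAP livers (lowest, median and highest), against 325, 351 and 415 TPM in control livers. SAP 14 and SAP 10 lay at 33.6 and 73.3 TPM, and the other SAP values lay between 121 and 132 TPM. Gpt2, the mitochondrial form, averaged 76.8 ± 6.63 TPM in SAP and 116.6 ± 16.8 TPM in control livers (SD, n = 6 each). The log2 changes were -1.91 ± 0.29 for Gpt and -0.59 ± 0.09 for Gpt2 (SE). The ratio of Gpt to Gpt2 was 0.469 to 1.79 in SAP and 2.81 to 3.44 in control libraries, a log2 difference of -1.32 (exact permutation test, adjusted p = 0.00340). Apart from the added 1 TPM, such ratios within a library do not depend on how the library is scaled. Glud1, glutamate dehydrogenase, which releases ammonia from glutamate in mitochondria, was the single member whose groups overlapped. It had 250, 424 and 529 TPM in SAP livers and 521, 600 and 649 TPM in control livers (change -0.57 ± 0.14 SE; limma adjusted p = 0.00460), and control 5, at 521 TPM, was the library inside the SAP range.

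**Figure D4:**
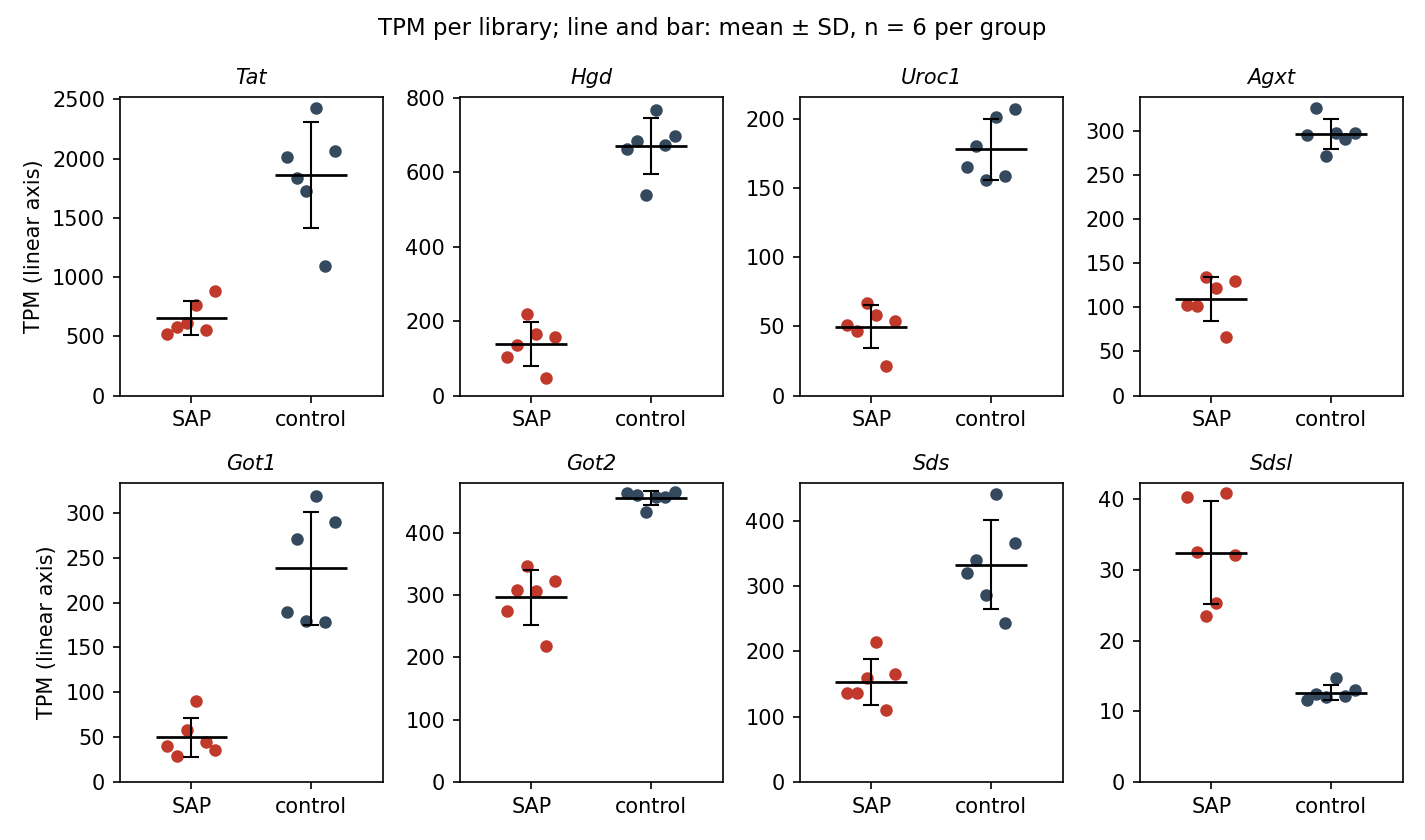
TPM in each library (points) with the mean and SD (n = 6 per group) for 8 members, SAP left of control, on linear axes starting at 0. Sdsl is higher in SAP and the other 7 are lower, with no overlap between groups in any of the 8.

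The stretch just before the members' transcription starts was read from RefSeq (GRCm38.p6; 250 bases before to 50 after the start), which holds 38 windows for 34 of the members. The upstream 250 bases are shown for 4 strongly lowered members, Hgd, Uroc1, Tat and Got1, picked because their windows hold the match described here, 5′ to 3′ on the gene's strand and ending at the base before the start. Capitals mark matches to the NF-Y-type letters CCAATNNG or their reverse complement CNNATTGG. Runs of CCAAT or ATTGG that lack the outer G or C stay in lower case, and all 4 sequences hold such runs.
Hgd, chr16:37579903-37580152 (+): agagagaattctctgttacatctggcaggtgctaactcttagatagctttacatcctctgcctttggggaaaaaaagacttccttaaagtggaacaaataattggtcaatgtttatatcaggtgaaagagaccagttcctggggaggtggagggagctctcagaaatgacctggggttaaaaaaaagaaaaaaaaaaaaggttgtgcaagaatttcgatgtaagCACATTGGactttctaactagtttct
Uroc1, chr6:90333039-90333288 (+): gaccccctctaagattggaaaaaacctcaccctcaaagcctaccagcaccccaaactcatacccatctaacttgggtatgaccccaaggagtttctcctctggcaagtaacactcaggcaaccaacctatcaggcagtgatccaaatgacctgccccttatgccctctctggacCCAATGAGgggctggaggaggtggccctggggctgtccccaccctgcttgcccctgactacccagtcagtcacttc
Tat, chr8:109990186-109990435 (+): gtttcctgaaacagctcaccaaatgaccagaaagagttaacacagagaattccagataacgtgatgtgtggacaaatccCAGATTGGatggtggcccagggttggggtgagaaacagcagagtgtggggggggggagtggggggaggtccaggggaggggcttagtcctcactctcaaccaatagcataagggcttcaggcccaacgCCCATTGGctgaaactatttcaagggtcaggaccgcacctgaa
Got1, chr19:43524606-43524855 (-): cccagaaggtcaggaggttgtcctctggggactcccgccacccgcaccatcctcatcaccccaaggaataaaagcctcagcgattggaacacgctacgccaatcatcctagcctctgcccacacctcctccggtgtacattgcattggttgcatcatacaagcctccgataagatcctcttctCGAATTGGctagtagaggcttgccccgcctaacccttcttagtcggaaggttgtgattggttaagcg
The full NF-Y-type letters, searched on both strands, occurred in 19 of the 38 member windows (50%). They occurred in 17.8% of 11123 windows of genes tested and 14.0% of all 32851 windows. The shorter runs of CCAAT or ATTGG were not counted. The match begins 26 bases before the transcription start in Hgd, 76 in Uroc1 and 67 in Got1, and Tat has matches beginning 171 and 43 bases before it. Of the 19 members with a window and a change of -1 or below, 13 had a match and 6 had none (Hpd, Fah, Amdhd1, Prodh, Amt and Agxt). Of the 15 with a window and a smaller decrease, 5 had a match, and Got2 was among the 10 without. These counts were made after the values were seen and were not tested. Other motifs, searched on both strands, were found in fewer member windows. The C/EBP-type letters TTGCNNAA were in 10.5% of member windows and 9.25% of windows of genes tested, the glucocorticoid receptor letters TGTTCT in 13.2% and 12.9%, and the TATA box letters TATAAA in 13.2% and 7.86%. The FOXA-type letters TGTTTAC were in 5.26% and 2.89%, and the HNF4-type letters CAAAGTCCA in 2.63% (1 window) and 0.557%. The cAMP-response letters TGACGTCA were in 0 member windows and 2.96% of windows of genes tested. Matches to different motifs may overlap, and a match is only a run of letters and not a measured binding site.

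Serine breakdown held the exception. Sds, serine dehydratase, which turns serine into pyruvate and ammonia, had 111, 148 and 215 TPM in SAP livers (lowest, median and highest), against 244, 330 and 442 TPM in control livers. Its log2 change was -1.12 ± 0.16 (SE; limma adjusted p = 8.66e-05). Sdsl, its serine dehydratase-like paralogue, had 23.5, 32.3 and 40.9 TPM in SAP livers and 11.7, 12.3 and 14.7 TPM in control livers. All 6 SAP libraries were above all 6 controls, with SAP 14 and SAP 10 highest, and the log2 change was 1.27 ± 0.13 (SE; limma adjusted p = 5.07e-06). It lay between 1.18 and 1.68 under the other scalings and the other settings for all libraries or subsets named above.

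Sdsl was the least abundant member in controls, and Sds remained the more abundant of the pair in every library. The ratio of Sds to Sdsl was 2.67 to 8.17 in SAP libraries and 18.6 to 28.2 in control libraries. On the log2 scale the ratio differed by -2.38 between the groups, with no overlap (exact permutation test, adjusted p = 0.00340). The genes lie side by side on chromosome 5 in GENCODE M21 on GRCm38, protein-coding Sdsl at 120458186 to 120472810 on the minus strand and Sds at 120476526 to 120483932 on the plus strand, with 3715 bases between them. The sources used here do not say how reads shared between paralogues were counted.

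Proline is oxidised in mitochondria by Prodh, proline dehydrogenase, and then Aldh4a1, which forms glutamate. Prodh had 14.3, 41.7 and 54.5 TPM in SAP livers (lowest, median and highest) and 93.3, 125 and 147 TPM in control livers, which is -1.72 ± 0.26 on the log2 scale (SE; limma adjusted p = 1.37e-04). Aldh4a1 averaged 96.7 ± 29.2 TPM in SAP and 252 ± 17.8 TPM in control livers (SD, n = 6 each), a change of -1.44. Their ratio differed by -0.28 on the log2 scale and did not pass the threshold (exact permutation test, p = 0.0498, adjusted p = 0.0608), but passed it without SAP 11 (adjusted p = 0.0476) or control 7 (0.0179).

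The 13 branched-chain and propionate genes were all lower with TPM as deposited, with a median log2 change of -0.91, while Pccb changed sign after rescaling outside the acute-phase list. Bckdha, Bckdhb and Dbt encode the branched-chain ketoacid dehydrogenase complex, the committed step of leucine, isoleucine and valine breakdown. Bckdhb, a subunit of its decarboxylase, had 56.4, 76.0 and 80.8 TPM in SAP livers (lowest, median and highest), against 138, 154 and 156 TPM in control livers. Its partner subunit Bckdha had 99.7, 120.0 and 136 TPM in SAP livers and 161, 179 and 199 TPM in control livers. The changes were -1.06 ± 0.08 for Bckdhb and -0.59 ± 0.08 for Bckdha (SE; limma adjusted p = 6.26e-07 and 8.96e-05). The ratio of Bckdha to Bckdhb was 1.44 to 1.94 in SAP and 1.04 to 1.35 in control libraries, a log2 difference of 0.47 (exact permutation test, adjusted p = 0.00340). Dbt, the transacylase core, averaged 18.6 ± 3.84 TPM in SAP and 34.9 ± 2.15 TPM in control livers (SD, n = 6 each), and its ratio to Bckdha differed by -0.31 (exact permutation test, adjusted p = 0.00340).

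Bckdk, the kinase that inactivates the complex, is not a member but was compared with Bckdha. Bckdk had 5.94 to 8.66 TPM (median 7.99) in SAP and 4.01 to 5.91 TPM (median 4.92) in control livers. The groups did not overlap but nearly touched, and the log2 change was 0.56 (limma adjusted p = 0.00110). The ratio of Bckdk to Bckdha was 0.0510 to 0.0960 in SAP and 0.0276 to 0.0404 in control libraries, a log2 difference of 1.15 (exact permutation test, adjusted p = 0.00340). The activating phosphatase gene Ppm1k, with a change of -0.51, did not pass the threshold (limma adjusted p = 0.145). Of other genes around the complex, Slc25a44, the mitochondrial carrier of branched-chain amino acids, had 19.6 to 26.9 TPM in SAP and 44.8 to 56.7 TPM in control livers (change -1.06), while Bcat2, the aminotransferase, was at -0.45 and not past the threshold (limma adjusted p = 0.0538).

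Downstream of the complex, leucine carbon passes through Ivd, isovaleryl-CoA dehydrogenase, the carboxylase subunits Mccc1 and Mccc2, and Auh, a hydratase. Ivd averaged 30.9 ± 7.81 TPM in SAP and 73.2 ± 5.28 TPM in control livers (SD, n = 6 each), a log2 change of -1.25. Mccc1 had 20.4 to 26.3 TPM in SAP and 44.0 to 52.3 TPM in control livers, and Mccc2 had 25.7 to 37.9 TPM in SAP and 59.2 to 62.1 TPM in control livers. Their changes were -1.05 and -0.91, and their ratio differed by -0.14 (exact permutation test, p = 0.0303, adjusted p = 0.0417). That call was lost when any of SAP 10, SAP 11, SAP 12, SAP 13, control 4, control 5 or control 6 was left out (adjusted p = 0.0582 to 0.0833). Auh averaged 28.5 ± 4.30 TPM in SAP and 40.7 ± 2.51 TPM in control livers (SD, n = 6 each), a change of -0.51.

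Valine carbon passes through Hibch, Hibadh and Aldh6a1. Hibadh, 3-hydroxyisobutyrate dehydrogenase, had the lowest change of the branched-chain genes and the smallest adjusted p of all members. It had 65.8, 91.3 and 101 TPM in SAP livers (lowest, median and highest) and 235, 240.4 and 247 TPM in control livers, which is -1.47 ± 0.09 on the log2 scale (SE; limma adjusted p = 8.05e-08). Hibch, the hydrolase before it, had 19.3 to 30.8 TPM in SAP and 31.7 to 37.1 TPM in control livers, a change of -0.48. Aldh6a1, methylmalonate semialdehyde dehydrogenase, averaged 86.9 ± 13.1 TPM in SAP and 172 ± 8.77 TPM in control livers (SD, n = 6 each), a change of -0.99.

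Propionyl-CoA from valine and isoleucine is carboxylated by the enzyme of Pcca and Pccb and converted to succinyl-CoA by Mmut. The biotin-carrying subunit Pcca had 21.5, 23.6 and 31.2 TPM in SAP livers (lowest, median and highest), against 53.7, 55.5 and 64.0 TPM in control livers. Pccb had 69.1, 72.8 and 79.0 TPM in SAP livers, against 91.1, 95.2 and 104 TPM in control livers. The log2 changes were -1.15 ± 0.09 for Pcca and -0.39 ± 0.06 for Pccb (SE). The ratio of Pcca to Pccb was 0.314 to 0.402 in SAP and 0.544 to 0.645 in control libraries, a log2 difference of -0.76 (exact permutation test, adjusted p = 0.00340). Mmut, methylmalonyl-CoA mutase, averaged 35.5 ± 5.16 TPM in SAP and 55.2 ± 2.22 TPM in control livers (SD, n = 6 each), a change of -0.63. Hsd17b10 and Acadsb, which act on isoleucine intermediates and are not members, changed by -1.44 and -0.86.

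**Figure D5:**
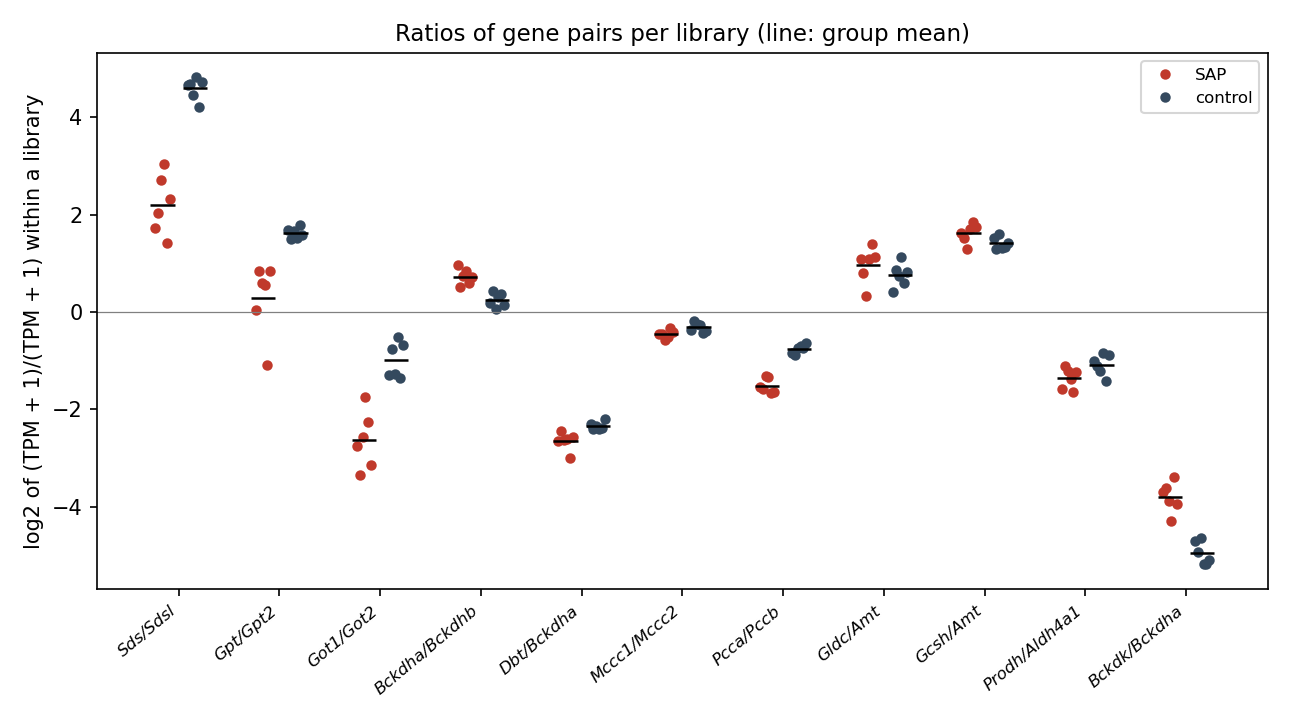
Log2 of the ratio of TPM + 1 within each library for the 11 gene pairs compared, SAP left of control, with the group mean as a line. SAP and control points do not overlap for Sds/Sdsl, Gpt/Gpt2, Got1/Got2, Bckdha/Bckdhb, Dbt/Bckdha, Pcca/Pccb and Bckdk/Bckdha.

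The glycine cleavage system, which splits glycine into carbon dioxide, ammonia and a folate-bound carbon, was lower in the 3 components measured here as members. Gldc, the decarboxylase, had 36.5, 44.4 and 54.4 TPM in SAP livers (lowest, median and highest) and 65.4, 82.9 and 106 TPM in control livers (log2 change -0.90 ± 0.12 SE; limma adjusted p = 4.73e-05). Amt, the aminomethyltransferase, averaged 23.1 ± 7.49 TPM in SAP and 49.0 ± 2.72 TPM in control livers (SD, n = 6 each), a change of -1.11. Gcsh, the lipoate-carrying protein, averaged 71.5 ± 14.2 TPM in SAP and 133 ± 7.42 TPM in control livers (SD, n = 6 each), a change of -0.90. The ratio of Gldc to Amt differed by 0.21 and that of Gcsh to Amt by 0.20 on the log2 scale. Neither passed the threshold (exact permutation tests, adjusted p = 0.271 and 0.0690), and Gcsh to Amt passed it without SAP 12 (adjusted p = 0.0179). Gldc to Amt lay at 0.34 without SAP 12 and at 0.13 without SAP 14. The component shared with other dehydrogenases, Dld, is not a member and was at -0.11 (limma adjusted p = 0.154), and higher at 0.30 after rescaling (0.00147).

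Agxt, alanine-glyoxylate aminotransferase, which makes glycine from glyoxylate, had 66.9, 112 and 134 TPM in SAP livers (lowest, median and highest), against 271, 296 and 326 TPM in control livers. Its log2 change was -1.46 ± 0.14 (SE; limma adjusted p = 3.05e-06). Lysine enters breakdown through Aass, the bifunctional aminoadipic semialdehyde synthase, and Aadat then transaminates aminoadipate. Aass averaged 89.7 ± 15.9 TPM in SAP and 147 ± 22.4 TPM in control livers (SD, n = 6 each), a change of -0.72 ± 0.12 (limma adjusted p = 4.08e-04). Aadat had 25.3, 40.9 and 53.8 TPM in SAP livers and 93.4, 111 and 117 TPM in control livers, a change of -1.50 ± 0.15 (limma adjusted p = 5.14e-06).

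Compared by amino acid, the median log2 change was -1.50 for the 7 aromatic genes, -1.28 for the 4 serine and proline genes with Sdsl included, -1.11 for the 2 lysine genes, -1.03 for the 4 histidine genes, -1.01 for the 4 glycine and glyoxylate genes, -0.91 for the 13 branched-chain and propionate genes and -0.64 for the 5 transaminase and glutamate dehydrogenase genes. The ranges overlapped widely: aromatic genes ran from -2.40 to -0.99, branched-chain genes from -1.47 to -0.39 and transaminase genes from -2.29 to -0.57. After rescaling outside the acute-phase list the medians were -1.08 for aromatic, -0.86 for serine and proline, -0.69 for lysine, -0.61 for histidine, -0.60 for glycine and glyoxylate, -0.50 for branched-chain and propionate and -0.22 for transaminase and glutamate dehydrogenase genes. No difference between these role groups was tested. Place of action was assigned from textbook knowledge after the values were seen, and Agxt (-1.46) was left unassigned. The 15 cytosolic members had a median of -1.49 with 11 at -1 or below. The 23 mitochondrial members had a median of -0.90 with 9 at -1 or below. Of all genes tested, 5.43% were lower with a change of -1 or below. The rescaled medians were -1.07 for the cytosolic and -0.50 for the mitochondrial members. Over the 39 members the log2 change went with the control level (Pearson r = -0.56, Spearman rho = -0.49 across genes, and -0.46 and -0.45 without Sdsl). The genes share the same libraries and the control mean enters both measures, so this is a description only.

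Most of the further enzymes of amino acid breakdown outside the listed members were also lower. Of 31 listed, 27 were tested, of which 24 were lower, 1 higher and 2 not past the threshold. Of all genes tested, 25.0% were lower and 19.5% higher. The median log2 change of the 27 was -0.83. After rescaling outside the acute-phase list 18 were lower, 3 higher and 6 not past it, against 10.5% of all genes tested lower and 56.0% higher. Pipox, which oxidises pipecolate and sarcosine, had 31.3 to 77.6 TPM in SAP and 145 to 176 TPM in control livers (change -1.59, limma adjusted p = 6.15e-06). Aldh7a1 and Dhtkd1, later enzymes of lysine breakdown, changed by -1.25 and -1.21, Gcdh, glutaryl-CoA dehydrogenase, by -1.09, and Shmt1, cytosolic serine hydroxymethyltransferase, by -1.30. Sardh and Dmgdh, which demethylate sarcosine and dimethylglycine, changed by -1.33 and -0.998. The exception was Tha1, a threonine aldolase, with 9.25 to 16.5 TPM in SAP and 3.78 to 6.82 TPM in control livers (log2 change 1.18, limma adjusted p = 3.92e-05).

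Amino acid carriers went both ways. Of 17 tested, 11 were lower, 3 higher and 3 not past the threshold, against 25.0% of all genes tested lower and 19.5% higher. After rescaling 8 were lower, 5 higher and 4 not past it, against 10.5% and 56.0%. Slc38a3, which carries glutamine and histidine, had 315 to 450.5 TPM in SAP and 894 to 1106 TPM in control livers (log2 change -1.36, limma adjusted p = 2.96e-07), and the neutral and cationic amino acid carriers Slc38a4 and Slc7a2 changed by -1.12 and -1.18. The carriers that were higher were Slc6a9 (0.41), Slc7a8 (0.30) and Slc25a38 (0.26), all with overlapping groups and named after their values were seen. Slc7a8 lay near the filter, with 0.98 to 1.86 TPM in SAP and 0.66 to 1.09 TPM in control livers. Its change was 0.54 with a pseudocount of 0.1.

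Of 16 tested regulators, 9 were lower, 1 was higher and 6 did not pass the threshold, against 25.0% of all genes tested lower and 19.5% higher. After rescaling 5 were lower, 4 higher and 7 not past it, against 10.5% and 56.0%. Klf15, a transcription factor that promotes amino acid breakdown genes, had 33.3 to 72.8 TPM in SAP and 107 to 151 TPM in control livers (log2 change -1.14, limma adjusted p = 1.09e-04). Ppargc1a, a coactivator of fasting metabolism, had 0.72 to 1.65 TPM in SAP and 2.29 to 5.37 TPM in control livers (change -1.13). Its SAP values lay near the filter, and its change was -1.61 with a pseudocount of 0.1. Foxo1 changed by -0.91. The glucagon receptor gene Gcgr was at -0.43 (limma adjusted p = 0.0357) with TPM as deposited, but at -0.015 after rescaling (0.921) and -0.12 under quantile normalization (0.459). Among those not past the threshold were the glucocorticoid receptor gene Nr3c1 (-0.023), Hnf4a (0.18), Cebpa (-0.33) and Creb3l3 (0.092). After rescaling Nr3c1 was at 0.36, Hnf4a at 0.60 and Creb3l3 at 0.51, all higher (limma adjusted p = 0.00384, 1.27e-04 and 2.59e-04), and Cebpa was at 0.085 (0.589).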

How the data were processed

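Liver RNA-seq of 6 SAP and 6 control samples was read from 1 table deposited by the authors, with 12 sample columns and a gene symbol. Its values, taken here as TPM, were computed by the authors before the table was deposited. No header or label names the unit. The reading as TPM was inferred here from column totals of 993412 to 995793, 2 decimals and no common step. TPM keeps no depth, so read numbers are unknown and counting intervals could not be given. The tool edgeR is listed, without version or role, per the submitters' processing notes. For aligner, build, annotation and strand, nothing is given in the sources used here. All 12 columns were used, and 120 rows repeating a symbol were resolved by the highest median.

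limma 3.58.1 in R 4.3.3 was fitted, with a trend, to log2(TPM + 1) of the 11335 genes that reached 1 TPM in 6 or more libraries, with group as the only term, two-sided p-values and Benjamini-Hochberg adjustment at 0.05. Log2 changes are SAP minus control on that scale. Within-library ratios of 11 gene pairs were tested by exact permutation, two-sided, in scipy 1.17.1. The pipeline was tested on simulated data. Every member is named; from other lists, genes past the threshold with a change of at least 1 or among the 3 smallest adjusted p, and others chosen after their values were seen. Members, lists and the Malat1 split (15 TPM) were chosen with earlier results of these data known. Alternatives were quantile and TMM-like scaling (trimming 30% of ratios and 5% of levels), rescaling outside 30 acute-phase genes, no filter, a filter at a mean of 5 TPM, no trend, a robust fit, a pseudocount of 0.1, the Malat1 split as a term or its high libraries alone, the highest mean for repeated symbols, and leaving out libraries. Promoter sequences are from RefSeq, GRCm38.p6, and positions from GENCODE M21. Figures used matplotlib 3.10.9. Some results for regulators and motifs are not reported here.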

Additional observations from a re-analysis of the deposited data

Results flagged for a closer look

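A library was set apart where its gap to the nearest of the other 5 in its group relative to the group's range, on the log2 scale, exceeded Dixon's 95% critical value. Of 114 groups examined (39 members and 18 other named genes in SAP and in control libraries), 13 were, and chance alone sets apart about 1 group in 20; 7 of the 13 were SAP 14. In SAP 14, Uroc1 was at 21.54 TPM, where the remaining SAP libraries had 47.0 to 67.0 TPM, Amdhd1 at 23.48 against 41.0 to 52.0, Aldh4a1 at 46.69 against 91.9 to 128, Glud1 at 250.44 against 404 to 529 and Aldh6a1 at 63.24 against 84.5 to 99.1 TPM. Outside the members, SAP 14 had Dhtkd1 at 6.84 TPM against 18 to 27.0 TPM and Foxo1 at 2.21 TPM against 3.63 to 4.45 TPM.

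Control 5 stood below the other controls for Fah (446.56 against 516 to 548 TPM), Aldh4a1 (216.81 against 253 to 264 TPM), Got2 (432.76 against 457 to 465 TPM), Aadat (93.37 against 108 to 117 TPM) and Dhtkd1 (32.48 against 42.3 to 44.2 TPM). Gstz1 in control 7 was at 957.28 TPM, and the remaining controls had 1013 to 1033 TPM. SAP 14 and control 5 are both among the 5 libraries with low Malat1, and SAP 14 had the largest acute-phase share, 37.1% of TPM. Their part in these values was not tested.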

How the results depend on the processing

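The counts of 38 lower and 1 higher member were the same under TMM-like scaling, both other filters, both other limma settings, a pseudocount of 0.1, the Malat1 split, the highest-mean rule and leaving out each library. Quantile normalization left 37 lower, with Pccb (-0.13, limma adjusted p = 0.0982) no longer past the threshold. Rescaling outside the acute-phase list took Pccb to 0.023, members at -1 or below to 13, genes higher to 6342, genes lower to 1191 and genes at -1 or below to 350. That follows from its construction, since it raises all other genes in SAP. Quantile normalization left 14 members at -1 or below, and the cause was not tested. Among the 7 libraries with high Malat1, 1829 genes were lower against 2832; fewer samples entered that fit. Leaving out each library gave 19 to 23 members at -1 or below, and ratio differences of -0.17 to -0.11 for Mccc1/Mccc2, -0.35 to -0.23 for Prodh/Aldh4a1, 0.13 to 0.34 for Gldc/Amt and 0.16 to 0.27 for Gcsh/Amt. The ratios of 8 pairs, Gldc/Amt among them, kept their side of the threshold under every alternative run on them. No paired analysis was possible because the groups share no replicate numbers. Depth is unknown, so the precision of single low values cannot be stated.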

Other observations

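Within the 6 SAP libraries Sdsl ran in the opposite order to the sum of the 39 members. Sdsl was at 40.9, 40.4, 32.5, 32.1, 25.4 and 23.5 TPM in SAP 14, SAP 10, SAP 11, SAP 15, SAP 13 and SAP 12, where the sums were 3605, 4772, 5283, 6011, 6394 and 6449 TPM. The sums as a share of TPM outside the acute-phase list kept this order except that SAP 12 (0.840%) and SAP 13 (0.887%) changed places. The order was noticed in the data and was not tested.

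The member windows before transcription starts held a median of 11.5 CG dinucleotides per 300 bases, against 20 in windows of genes tested and 7 in all windows. Windows of members with a change of -1 or below had a median of 11 (22 windows), and those of the other members a median of 15.5 (16 windows). Uroc1 had 0 and Hgd 2 in their windows, while Glud1 had 51. Other windows ran the other way. Got1 had 18 and Hibadh 28, with log2 changes of -2.29 and -1.47, and Ftcd had 3 with a change of -0.69. These windows were picked after the values were seen, and no link with the change was tested.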
